A study of Homo sapiens with 6 samples.

Results

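The platelet-derived growth factor (PDGF) genes described here are the receptors PDGFRA and PDGFRB, the receptor-like gene PDGFRL, and the ligands PDGFA, PDGFC and PDGFD. They were chosen by name, and their 6 Ensembl identifiers were all found among the 57659 genes of the count files. RNA was sequenced from IMR90 cells, primary human fibroblasts of fetal lung. In 3 libraries the cells expressed a short hairpin RNA (shRNA) against macroH2A1, a histone H2A variant that carries a large globular domain. In the other 3 libraries they expressed a hairpin against luciferase, an insect gene absent from human cells, so the cells of both groups carried a hairpin. The cells were a single line, and how many hairpins were used against macroH2A1 was not given in the sources used here. The series calls the libraries biological replicates but does not say that they came from separate cultures, so p-values measure the spread between these libraries.

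PDGF ligands are secreted dimers that bring receptor chains together at the cell surface, after which the receptors phosphorylate each other and recruit relay proteins to the modified tyrosines. PDGFRA binds the A, B and C chains, and PDGFRB binds the B and D chains. In developing lung the alpha receptor marks interstitial fibroblasts that answer ligand from the epithelium, and the beta receptor marks pericytes and smooth muscle, although cultured fibroblasts usually express both.

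Of the receptors and ligands, PDGFRA and PDGFD were higher in the macroH2A1 knockdown. PDGFRA reached 1035 ± 29.8 counts per 1000000 (CPM) in knockdown cells, against 496 ± 23.0 CPM in control cells (SD, n = 3 each). PDGFD reached 48.1 ± 4.77 CPM in knockdown cells, against 27.5 ± 2.84 CPM in control cells. PDGFRB, PDGFRL and PDGFC did not pass the test, PDGFA was too low to be tested, and PDGFB, the remaining ligand gene, had 0 counts in all 6 libraries. CPM here are counts divided by the library total after scaling by the trimmed mean of M-values (TMM).

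The promoter sequences below are those of the called genes PDGFRA and PDGFD, with PDGFRB beside them as the other signalling receptor. Each line below gives the 250 bases before a start site in RefSeq on GRCh38.p14, read 5′ to 3′ on the gene's own strand, with a CCAAT box in capitals where the window held one. The window of the downstream PDGFRA start is chr4:54233710-54233959 (+ strand), that of PDGFRB is chr5:150155846-150156095 (− strand), and that of PDGFD is chr11:104164148-104164397 (− strand).
PDGFRA: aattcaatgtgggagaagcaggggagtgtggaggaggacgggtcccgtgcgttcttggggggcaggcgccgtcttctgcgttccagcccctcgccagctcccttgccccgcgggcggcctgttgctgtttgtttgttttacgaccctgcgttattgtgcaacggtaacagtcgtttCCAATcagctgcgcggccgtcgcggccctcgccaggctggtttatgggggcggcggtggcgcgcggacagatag
PDGFRB: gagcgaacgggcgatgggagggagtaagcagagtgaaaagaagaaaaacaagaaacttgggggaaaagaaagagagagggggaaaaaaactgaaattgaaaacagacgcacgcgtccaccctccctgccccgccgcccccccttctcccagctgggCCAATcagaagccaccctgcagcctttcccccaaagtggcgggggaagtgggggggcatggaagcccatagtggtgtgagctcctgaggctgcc
PDGFD: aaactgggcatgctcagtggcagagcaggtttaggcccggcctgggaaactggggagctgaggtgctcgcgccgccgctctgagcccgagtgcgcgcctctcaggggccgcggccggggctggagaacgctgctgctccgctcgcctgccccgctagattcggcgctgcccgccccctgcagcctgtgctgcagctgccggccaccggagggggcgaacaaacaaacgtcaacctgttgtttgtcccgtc

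The search covered CCAAT, the GC box GGGCGG, the TATA box TATAAA and the cyclic AMP response element TGACGTCA on both strands. It also covered the AP-1-like pattern TGANTCA, in which N is any base. This list was chosen after the sequences had been seen. RefSeq windows were found for 4 of the 6 genes, PDGFRA, PDGFRB, PDGFA and PDGFD, and none for PDGFC or PDGFRL. The downstream PDGFRA window held CCAAT from 74 bases before the start and GC boxes at 139 and 27 bases. The PDGFRB window held CCAAT from 94 bases before the start and a GC box at 118 bases. The PDGFD window held a GC box at 81 bases but not CCAAT. Of the 35116 promoter windows of the same length, 32.0% held CCAAT and 42.6% held the GC box, so both are common. The other PDGFRA start in RefSeq lies 4667 bases upstream, and its window held neither motif. It held TGAATCA at 32 bases, a match to the AP-1-like pattern only because any base was allowed at the centre. Of all windows 6.57% held a match to that pattern. No window of these genes held a TATA box (10.7% of all windows) or a cyclic AMP response element (1.65%). The counts are per gene, so they do not say which PDGFRA start was used.

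The knockdown libraries held 3741087 to 5322851 reads assigned to genes and the control libraries 3744716 to 6421605, so that 3 counts, the limit that a count of 0 allows, correspond to 0.467 to 0.802 CPM before TMM scaling. MACROH2A1 (ENSG00000113648) itself had 197, 201 and 149 counts in knockdown libraries, against 582, 385 and 321 in control libraries (log2 fold change -1.11, SE 0.08, edgeR adjusted p = 0.000917). Most markers of the labelled cell type were abundant. Over 12 fibroblast markers the summed level was 14042 to 15470 CPM in knockdown libraries, against 10151 to 11770 CPM in control libraries. S100A4, also on that list, was near the limit of detection, with 17 counts over the knockdown libraries and 8 over the control libraries. Markers of other cell types were mixed. PECAM1 and EMCN of endothelium, HIGD1B and COX4I2 of pericytes, SFTPB of epithelium, and CD3E and HBA1 of blood had 0 counts in all libraries. Other markers on the same lists were detected. In knockdown libraries the mean level was 489 CPM for TAGLN, 317 for ACTA2, 132 for TEK, 75.6 for MCAM, 18.6 for CSPG4 and 8.19 for KRT18. In control libraries it was 422 CPM for TAGLN, 360 for ACTA2, 62.3 for TEK, 51.1 for MCAM, 18.5 for CSPG4 and 24.5 for KRT18.

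Over all 13445 genes that passed the filter on low counts, edgeR's quasi-likelihood test called 8.21% (Benjamini-Hochberg adjusted p under 0.05), with 3.9% higher and 4.31% lower in the knockdown. Of the PDGF genes, 5 of 6 passed the filter, 2 were called higher and 0 lower. DESeq2 and limma-voom also called 0 lower, and at an unadjusted p under 0.05 in edgeR only PDGFC lay on the lower side. The median log2 fold change was 0.41 over the 5 tested PDGF genes, beside 0.01 over all genes tested. The CPM values of the groups did not overlap for any of the 5, beside 30.4% of all genes tested.

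**Figure D1:**
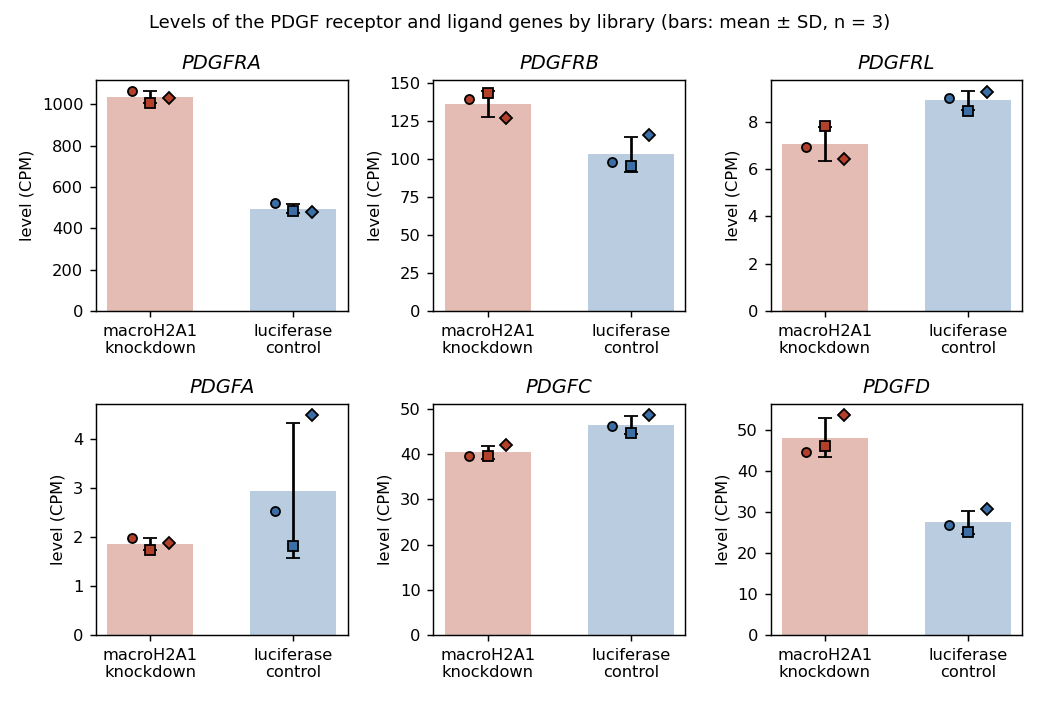
Level of each PDGF gene in CPM (vertical axes, each from 0) in macroH2A1 knockdown and luciferase control libraries. Bars give the mean and whiskers the SD of 3 libraries. Circles, squares and diamonds are replicates 1, 2 and 3. PDGFRA and PDGFD stand clearly higher in the knockdown, PDGFRL and PDGFC lie lower without passing the test, and the PDGFA groups overlap.

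PDGFRA (ENSG00000134853, chromosome 4), the alpha receptor, had 5391, 4630 and 3855 counts in knockdown libraries, against 3304, 2126 and 1817 in control libraries. Scaled for depth, these were 1066, 1007 and 1033 CPM in knockdown libraries, against 523, 486 and 480 CPM in control libraries. Every knockdown library was far above every control library, and the libraries within a group lay close together. The log2 fold change was 1.06 (SE 0.08, 95% interval 0.88 to 1.25, edgeR adjusted p = 0.00113), which is a 2.09-fold higher level with an interval of 1.83 to 2.37. In bulk RNA, more cells that express a gene and more RNA per cell cannot be told apart.

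By size of change PDGFRA was not extreme, since its log2 fold change ranked 169th among the 524 genes called higher. By amount of RNA gained it ranked 39th of all 13445 genes tested, with 538.9 CPM more in the knockdown. PDGFRA was already abundant in control cells. Per kilobase of its longest annotated transcript, its level ranked 576th in knockdown and 901st in control cells among 12920 tested genes with a known length. The authors' deposited table gave a log2 ratio of 1.07 for PDGFRA with an adjusted p of 1.10e-70.

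PDGFRB (ENSG00000113721, chromosome 5), the beta receptor, had 705, 659 and 474 counts in knockdown libraries, against 619, 417 and 440 in control libraries. In CPM these were 139, 143 and 127 in the knockdown and 97.9, 95.3 and 116 in the control. The lowest knockdown library stood above the highest control library, but control replicate 3 lay well above the other two controls. The log2 fold change of 0.41 (SE 0.10) missed the threshold (edgeR adjusted p = 0.0553), and its 95% interval of 0.17 to 0.64 corresponds to a 1.12-fold to 1.56-fold higher level.

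PDGFRB sat so near the threshold that the call depended on the method. It passed with upper-quartile scaling (log2 fold change 0.42, edgeR adjusted p = 0.0499), with DESeq2 (0.41, adjusted p = 0.00315), with limma-voom (0.42, adjusted p = 0.0360) and in edgeR without control replicate 3 (0.50, adjusted p = 0.0444). Over all 14 other settings its edgeR, DESeq2 or limma adjusted p ranged between 0.00315 and 0.160. The authors' deposited table listed it at a log2 ratio of 0.42 with an adjusted p of 0.000148. That table called 3 of the 6 PDGF genes at an adjusted p under 0.05, beside 12% of its 11638 genes.

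The balance between the receptors could be read within each library, where no scaling between libraries enters. PDGFRA made up 88.4%, 87.5% and 89.1% of the summed PDGFRA and PDGFRB counts in knockdown libraries, against 84.2%, 83.6% and 80.5% in control libraries. The lowest knockdown share, 87.5%, had an exact 95% binomial interval of 86.6% to 88.4%, and the highest control share, 84.2%, one of 83.0% to 85.3%, both for counting error only. The mean share was 88.3 ± 0.759% in the knockdown and 82.8 ± 1.99% in the control (SD, n = 3 each), a difference of 5.57 percentage points. The groups did not overlap, and the exact two-sided permutation test gave p = 0.1, the smallest that 3 against 3 libraries allow.

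PDGFRL (ENSG00000104213, chromosome 8) encodes a secreted protein that resembles the ligand-binding part of the receptors and has no kinase. It had 35, 36 and 24 counts in knockdown libraries, against 57, 37 and 35 in control libraries, or 6.92, 7.83 and 6.43 CPM against 9.02, 8.46 and 9.25 CPM. The scaled groups did not overlap, but the counts were few. The log2 fold change of -0.33 (SE 0.16, 95% interval -0.71 to 0.05) did not reach the threshold (edgeR adjusted p = 0.284). PDGFRL overlaps MTUS1 on the opposite strand, and MTUS1 had 23, 25 and 24 counts in knockdown libraries, against 24, 17 and 14 in control libraries. The libraries keep strand, but whether the counting used it was not given in the sources used here. Reads of these 2 genes may therefore be mixed.

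PDGFA (ENSG00000197461, chromosome 7), a ligand of the alpha receptor, was close to the limit of detection. It had 10, 8 and 7 counts in knockdown libraries, against 16, 8 and 17 in control libraries, which is 1.98, 1.74 and 1.88 CPM against 2.53, 1.83 and 4.49 CPM. The groups overlapped, and the highest value was that of control replicate 3. Over the summed counts, 25 in knockdown and 41 in control libraries, the ratio of knockdown to control was 0.659 with an exact 95% counting interval of 0.384 to 1.11. Under the settings whose filter kept PDGFA, its log2 fold change lay between -0.86 and -0.57 with edgeR adjusted p-values of 0.266 to 0.655. Where such a setting left out a single library, PDGFA passed the filter only through control libraries. A lower value in those fits was therefore partly fixed by the filter.

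PDGFC (ENSG00000145431, chromosome 4), another ligand of the alpha receptor, is secreted in a latent form from which a protease must cut a CUB domain. It had 200, 182 and 157 counts in knockdown libraries, against 292, 195 and 184 in control libraries, or 39.6, 39.6 and 42.1 CPM against 46.2, 44.6 and 48.6 CPM. Every knockdown library lay below every control library, by a small margin. The log2 fold change of -0.20 (SE 0.07, 95% interval -0.37 to -0.03) did not reach the threshold (edgeR adjusted p = 0.144), and no setting tried brought it past the threshold.

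PDGFD (ENSG00000170962, chromosome 11), a latent ligand of the beta receptor, was higher in the knockdown. It had 226, 212 and 200 counts in knockdown libraries, against 169, 110 and 116 in control libraries, or 44.7, 46.1 and 53.6 CPM against 26.7, 25.2 and 30.7 CPM. All knockdown libraries stood above all control libraries. The log2 fold change was 0.81 (SE 0.11, 95% interval 0.55 to 1.07, edgeR adjusted p = 0.00851), or 1.75-fold with an interval of 1.46 to 2.10, which ranked 256th among the 524 genes called higher. The authors' deposited table gave a log2 ratio of 0.82 and an adjusted p of 1.06e-07.

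PDGFD made up 53.1%, 53.8% and 56.0% of the summed PDGFD and PDGFC counts in knockdown libraries, against 36.7%, 36.1% and 38.7% in control libraries. The more abundant of these ligand RNAs by count was therefore PDGFD in each knockdown library and PDGFC in each control library. The exact 95% binomial interval was 48.2% to 57.9% for the lowest knockdown share and 33.1% to 44.4% for the highest control share. The means were 54.3 ± 1.54% in the knockdown and 37.1 ± 1.36% in the control (SD, n = 3 each), 17.2 percentage points apart, with an exact two-sided permutation p of 0.1, again the smallest possible.

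**Figure D2:**
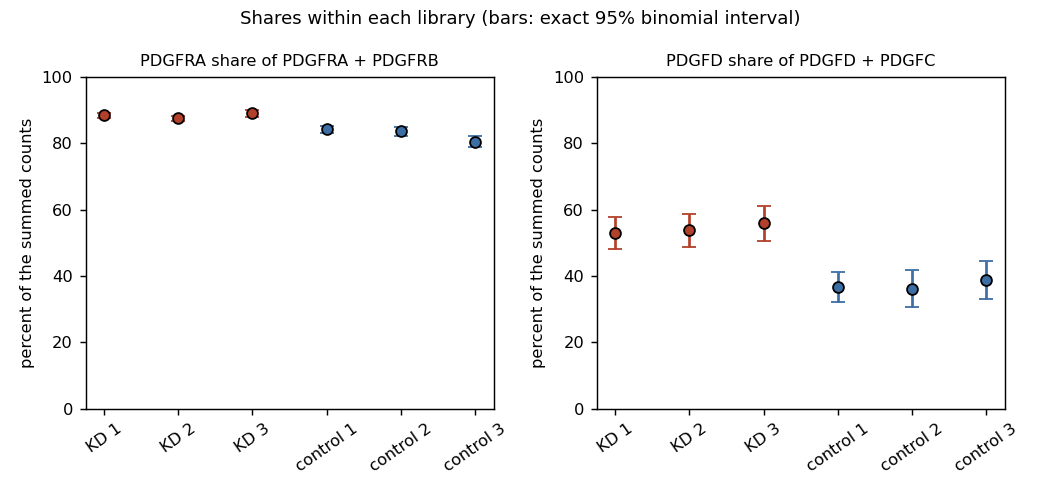
Share of PDGFRA in the summed PDGFRA and PDGFRB counts (left) and of PDGFD in the summed PDGFD and PDGFC counts (right), in percent, for each of the 3 knockdown (KD) and 3 control libraries. Bars are exact 95% binomial intervals. Both shares are higher in every knockdown library than in every control library, with a wider gap for the ligands.

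Per kilobase of the longest transcript, levels in the knockdown were highest for PDGFRA at 157 ± 4.53 CPM per kilobase, followed by PDGFRB at 23.9 ± 1.49, PDGFD at 11.9 ± 1.18, PDGFC at 9.70 ± 0.345, PDGFRL at 3.71 ± 0.373 and PDGFA at 0.809 ± 0.0518. In the control the order was PDGFRA at 75.5 ± 3.50 CPM per kilobase, PDGFRB at 18.0 ± 2.00, PDGFC at 11.2 ± 0.489, PDGFD at 6.79 ± 0.700, PDGFRL at 4.68 ± 0.213 and PDGFA at 1.28 ± 0.599 (SD, n = 3 each). The levels of neighbours in either order stood further apart than their SDs, and only PDGFC and PDGFD changed places between the groups. RNA of the 2 kinase receptors exceeded that of each ligand in both groups. These levels rest on the longest annotated transcript, which need not be the one expressed.

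**Figure D3:**
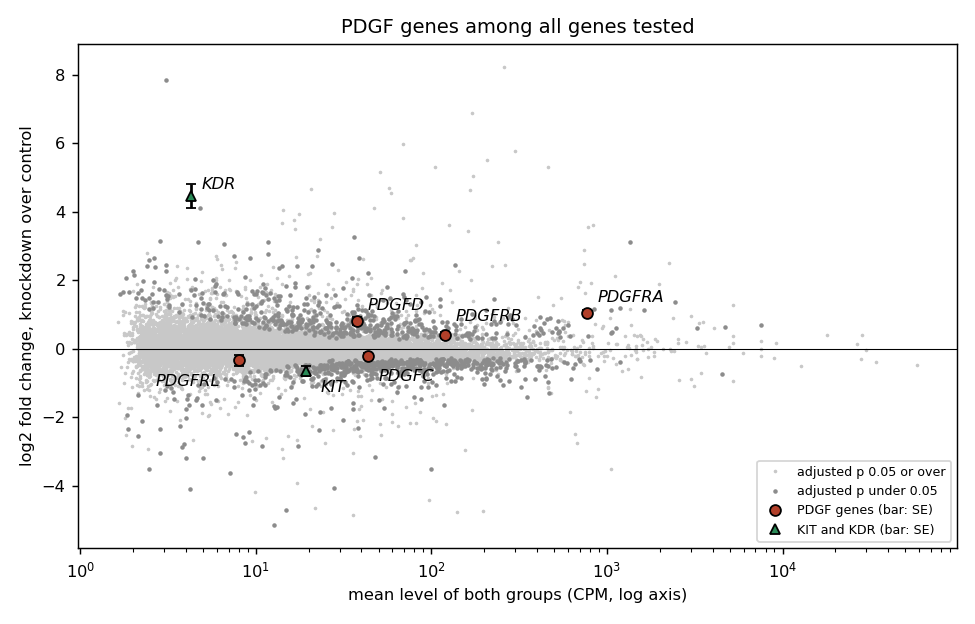
Log2 fold change, knockdown over control (vertical axis), against the mean level of both groups in CPM (horizontal log axis) for the 13445 genes tested; dark grey points had an adjusted p under 0.05. Red circles are the 5 tested PDGF genes and green triangles KIT and KDR, with bars for the SE. PDGFRA lies among the most abundant genes at 1.06, and KDR lies far above the PDGF genes at 4.47.

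PDGFRA shares its stretch of chromosome 4 with the related receptor genes KIT, which encodes the receptor of stem cell factor, and KDR, which encodes a receptor of vascular endothelial growth factor (VEGF). In RefSeq's order of genes KIT is the 3rd gene after PDGFRA and KDR the 10th. KIT had 62, 72 and 66 counts in knockdown libraries, against 145, 106 and 88 in control libraries, and fell by 0.63 on the log2 scale (SE 0.14, edgeR adjusted p = 0.0444). That call was lost in 10 of 14 other settings, including the removal of any single library, with log2 fold changes between -0.75 and -0.49 and adjusted p-values up to 0.129. KDR had 51, 33 and 27 counts in knockdown libraries, against 2, 2 and 1 in control libraries, so that knockdown over control was 24.0 for the summed counts (exact 95% interval 9.99 to 75.4 for counting error only; fitted log2 fold change 4.47, edgeR adjusted p = 0.00126). KDR passed the filter on low counts only through the knockdown libraries, so a difference was partly fixed by the filter.

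Of the nearest 2 genes on each side of PDGFRA in that order, LINC02283 and LINC02260 had 0 counts, the pseudogene RPL22P13 had 1, 1 and 3 counts in knockdown libraries and 1, 0 and 1 in control libraries, and LOC124900925 had no matching identifier and was not measured here. Further upstream, and chosen after their values had been seen, CHIC2 (log2 fold change -0.42, edgeR adjusted p = 0.184), FIP1L1 (0.11, adjusted p = 0.534) and LNX1 (0.82, adjusted p = 0.499) did not pass the test, and GSX2 had 0 counts. The gene next to PDGFRB on one side is RPL7P1, a ribosomal protein pseudogene whose reads can be confused with those of near-identical copies. It had 42, 53 and 84 counts in knockdown libraries, against 72, 44 and 54 in control libraries (log2 fold change 0.23, edgeR adjusted p = 0.755). The related receptor gene CSF1R, the one beyond it, had 1 count in all 6 libraries together.

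Beyond the receptors and ligands, genes of PDGF signalling were listed by role from textbook knowledge. Over the lists of ligand processing, receptor partners, signal relay and receptor brakes, 10 genes were called. The number tested in each list is given below, and 8.21% of all genes tested were called. Each list is described by its counts and its median, without a test of the list.

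Among enzymes that process the ligands, 2 of 5 tested genes were higher and 0 lower, beside 3.9% and 4.31% of all genes tested. The median log2 fold change was 0.07. PCSK5, a proprotein convertase, had 29.1 ± 0.853 CPM in the knockdown and 13.6 ± 0.981 CPM in the control (log2 fold change 1.10, SE 0.09, edgeR adjusted p = 0.00173). PLAT, the tissue plasminogen activator that can cut the CUB domain from PDGFC, had 467 ± 23.3 CPM in the knockdown and 297 ± 6.14 CPM in the control (0.65, SE 0.07, adjusted p = 0.00402). PLAU, urokinase, which can activate PDGFD, had 343 ± 13.9 CPM in the knockdown and 394 ± 21.8 CPM in the control and did not pass (-0.20, adjusted p = 0.176). PCSK5 and PLAT kept their calls in all 14 other settings, as did NRP2 among the receptor partners.

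Among membrane partners of the receptors, 2 of 8 tested genes were higher and 1 was lower, beside 3.9% and 4.31% of all genes tested. The median was 0.20. NRP2, a neuropilin co-receptor, had 130 ± 9.36 CPM in the knockdown and 74.9 ± 7.15 CPM in the control (log2 fold change 0.80, SE 0.10, edgeR adjusted p = 0.00575). ITGB3, the integrin beta-3 chain, had 28.3 ± 2.62 CPM in the knockdown and 17.4 ± 1.09 CPM in the control (0.70, SE 0.10, adjusted p = 0.0119). CD44, the hyaluronan receptor, had 707 ± 42.4 CPM in the knockdown and 1054 ± 63.9 CPM in the control and fell by 0.57 (SE 0.09, adjusted p = 0.0131). ITGB3 lost its call without control replicate 2 (0.65, adjusted p = 0.0545). CD44 lost its call without knockdown replicate 3 (-0.58, adjusted p = 0.0549), without control replicate 1 (-0.55, adjusted p = 0.0548) and with the replicate number as a block (adjusted p = 0.0586). NRP1, LRP1 and EGFR had adjusted p-values of 0.0713, 0.0647 and 0.0603 in edgeR, and their log2 fold changes were -0.29, 0.40 and -0.38.

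Of 40 tested relay genes 1 was higher and 1 lower, beside 3.9% and 4.31% of all genes tested, and the median was -0.05. STAT5B, a transcription factor that tyrosine kinases activate, had a log2 fold change of 0.48 (edgeR adjusted p = 0.0370), with 33.5 ± 1.58 CPM in the knockdown and 24.0 ± 2.71 CPM in the control. PTPN11, the phosphatase SHP2 that docks on both receptors, fell by 0.42 (adjusted p = 0.0150), with 208 ± 8.92 CPM in the knockdown and 278 ± 4.45 CPM in the control. STAT5A, with the highest value of the list at 1.56 (SE 0.48), did not pass (adjusted p = 0.104), and its knockdown counts of 37, 14 and 12 were uneven, against 7, 6 and 9 in control libraries.

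Of 23 tested brakes on the receptors 1 was higher and 2 were lower, with a median of -0.03. The counts of called relay and brake genes, 2 of 40 and 3 of 23, are small numbers beside a background of 8.21%, and nothing about these lists is read from them. SOCS3, a suppressor of cytokine signalling, had a log2 fold change of 0.63 (edgeR adjusted p = 0.0316), RASA1, the Ras GTPase-activating protein that docks on the beta receptor, fell by 0.43 (adjusted p = 0.0485), and CAV1, a caveolar coat protein, fell by 0.32 (adjusted p = 0.0403). With 1 library fewer, the number of calls over all genes fell to between 427 and 564, against 1104 in the reported fit. STAT5B, RASA1 and CAV1 lost their calls whichever library was left out, with edgeR adjusted p-values up to 0.114, 0.146 and 0.124. Their log2 fold changes in those fits stayed at 0.40 to 0.55, -0.48 to -0.34 and -0.34 to -0.29. SOCS3 kept its call only without knockdown replicate 2 among these (otherwise 0.0542 to 0.104), and PTPN11 only without knockdown replicate 1 (otherwise 0.0555 to 0.0665).

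Of the related receptor kinases KIT, KDR, FLT1, FLT4, FLT3 and CSF1R, 3 could be tested. KDR was higher and KIT lower, beside 3.9% and 4.31% of all genes tested, with the limits given above for both. FLT1, another VEGF receptor, had a log2 fold change of -0.42 (edgeR adjusted p = 0.327). Of the other growth factors of the PDGF and VEGF family, VEGFA, VEGFB and VEGFC were tested and none passed, with log2 fold changes of 0.14, 0.05 and -0.32 (edgeR adjusted p = 0.465, 0.949 and 0.353).

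**Figure D4:**
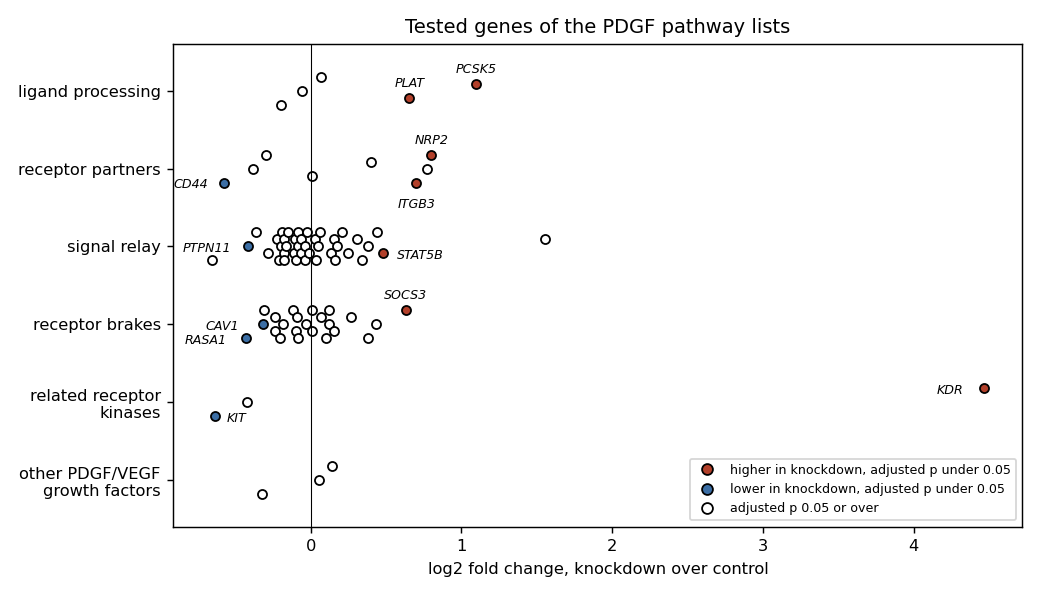
Log2 fold change, knockdown over control (horizontal axis), of each tested gene in the 6 lists related to PDGF signalling (rows; points are spread vertically for legibility). Red points were higher and blue points lower at an adjusted p under 0.05, and open points did not pass. PCSK5, PLAT, NRP2 and ITGB3 lie to the right, CD44 to the left, and relay and brake genes gather near 0.

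Some fibroblast markers were higher together with PDGFRA. Of 11 tested fibroblast markers 5 were higher, beside 3.9% of all genes tested, namely the collagens COL1A2 and COL3A1 (log2 fold changes 0.60 and 1.13), the proteoglycans DCN and LUM (1.14 and 1.03) and the transcription factor TCF21 (0.73), and none was lower. VIM, THY1, FAP, FN1 and POSTN had values between -0.14 and 0.21 and COL1A1 one of 0.39, and none of these passed. S100A4 was too low to be tested. Of 11 tested pericyte and smooth muscle markers 1 was called, MCAM (0.57), beside 8.21% of all genes tested. The median of that list was 0.01, and the markers that did not pass lay on both sides of it. RGS5 had the largest value of the list at 1.09 (SE 0.32, edgeR adjusted p = 0.0852). MYH11, TAGLN and NOTCH3 had values of 0.27, 0.22 and 0.15. ACTA2, KCNJ8, CNN1 and ABCC9 had values of -0.18, -0.20, -0.26 and -0.38, and CSPG4 and DES had 0.007 and -0.004. The summed level was 950 to 983 CPM in knockdown libraries, against 875 to 943 CPM in control libraries.

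Of 11 endothelial markers only KDR and TEK, the angiopoietin receptor, passed the filter. Both were called higher, beside 3.9% of all genes tested, and nothing about the list is read from 2 genes. KDR passed the filter only through its knockdown counts, so its place in that count was partly fixed by the filter. TEK had counts well above the minimum in both groups. The summed endothelial level was 139 to 146 CPM in knockdown libraries, against 61.6 to 66.3 CPM in control libraries. Most of that sum was TEK alone, with means of 132 CPM in the knockdown and 62.3 CPM in the control. PECAM1 and EMCN had 0 counts and CDH5 1 count in all, and VWF had 8 counts in knockdown libraries, against 17 in control libraries. The epithelial keratin KRT18 was lower (-1.59), with means of 8.19 CPM in the knockdown and 24.5 CPM in the control. The summed epithelial level, most of it KRT18, was 8.11 to 12.9 CPM in knockdown libraries, against 28.4 to 30.9 CPM in control libraries. Blood cell markers summed to 4.55 to 5.44 CPM in knockdown libraries, against 5.49 to 7.44 CPM in control libraries. CD68 made up most of it, with means of 4.47 CPM in the knockdown and 6.06 CPM in the control. The part of these markers in the values of PDGFRA and PDGFD was not tested.

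Among 8095 genes with a symbol and a mean of at least 10 CPM, those whose log2 CPM was most alike to PDGFRA over the 6 libraries were TSPAN12 (Pearson r 0.9998), ARHGAP28 (0.999) and TRPA1 (0.998). TSPAN12, a tetraspanin, had 23.3 CPM in the knockdown and 6.51 CPM in the control. For PDGFD they were PLEKHA5, FKBP9 and TMEM219 (r 0.997 each), of which TMEM219 was not itself called (log2 fold change 0.20, edgeR adjusted p = 0.477). The 6 libraries form 2 groups, so these values contain the difference between the groups and are a description only.

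Across the other settings, PDGFRA and PDGFD kept their direction and their call in all 14 that were tried. The log2 fold change lay between 1.03 and 1.11 for PDGFRA and between 0.73 and 0.88 for PDGFD. PDGFRL stayed between -0.41 and -0.27 and PDGFC between -0.23 and -0.17, and neither was called in any setting.

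**Figure D5:**
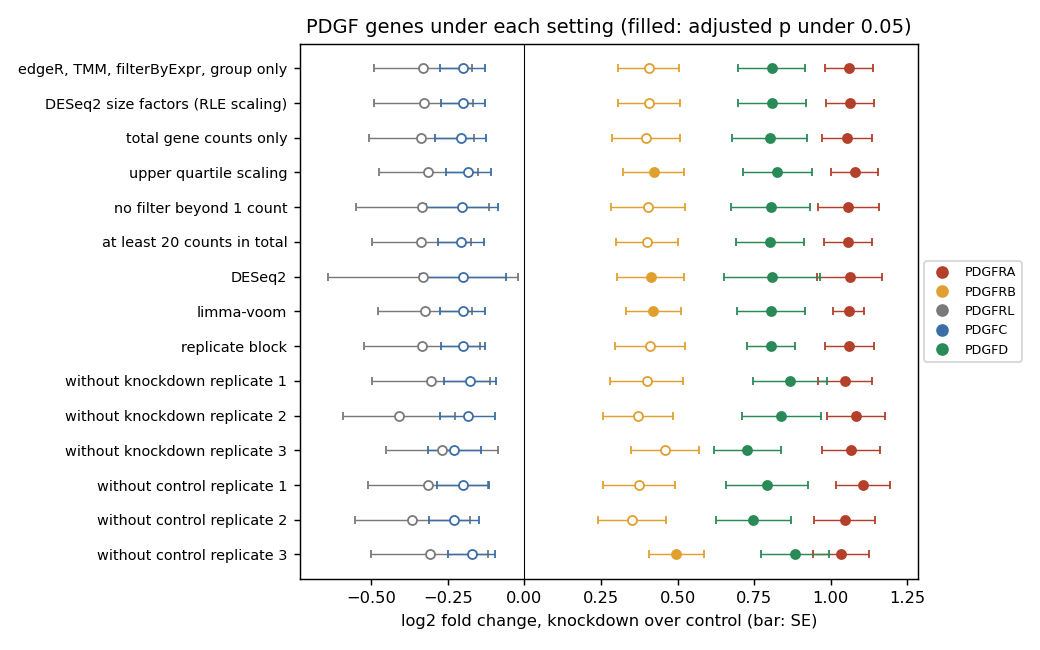
Log2 fold change, knockdown over control (horizontal axis), of the 5 tested PDGF genes under the reported fit (top) and 14 other settings (rows). Bars are the SE and filled points had an adjusted p under 0.05. PDGFRA and PDGFD are filled in every row, PDGFRB in 4 of the other rows, and PDGFRL and PDGFC in none.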

How the data were processed

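RNA was depleted of ribosomal RNA and made into strand-keeping libraries that ran in 1 lane, per the labels' protocols. The authors deposited unnormalized counts of reads for each Ensembl gene, made with CASAVA 1.7, GSNAP and HTSeq on hg19 per the submitters' processing notes. Which annotation and strand option the counting used was not given in the sources used here. Lines that name no gene held 86.3% to 88.1% of the reads listed (64.4% to 68.8% had no unique alignment) and were left out. The authors also deposited a comparison made with DESeq 1.10.1, holding per the file headers a mean signal (counts over size factors), log2 ratios, p-values and adjusted p-values; its log2 ratios run knockdown over control.

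Counts were tested with edgeR 4.0.16 in R 4.3.3 (filterByExpr with a minimum count of 10, TMM scaling, quasi-likelihood test, group as the only term, Benjamini-Hochberg adjustment over 13445 genes). SE is the log2 fold change over the square root of F. CPM use the TMM-scaled totals of the tested genes. Alternatives were other scalings and filters, DESeq2 1.42.0, limma-voom (limma 3.58.1), a replicate block and leaving out each library. The steps were tested on simulated data.

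The members and gene lists were chosen with earlier results of these data known. Of 164 list entries 163 matched. Symbols came from a reference list of gene names, and from GENCODE 29 where an identifier was missing there. Transcript lengths came from GENCODE 29, and gene order and promoters from RefSeq. No hg19 coordinates are given. Named were all members and PDGFB, every called gene of the pathway lists, the nearest 2 neighbours on each side of PDGFRA with KIT and KDR, called markers and defining markers at 0, and the 3 genes most alike to each called member. Other genes were named after their values were seen.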

Additional observations from a re-analysis of the deposited data

How the results depend on the processing

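Deviations of same-numbered libraries correlated at -0.03, -0.02 and -0.17, so the gene values showed no pairing by replicate number. Same-numbered libraries were nevertheless similar in depth. Reads listed were 44546003, 33193394 and 28350044 in knockdown replicates 1, 2 and 3, and 46821294, 32204507 and 28537921 in control replicates 1, 2 and 3. Whether same-numbered libraries shared a step was not tested, and a fit with the replicate number as a block is given as an alternative. With that block 416 genes were called, against 1104 without it, and PDGFRA (adjusted p = 0.0172 in edgeR) and PDGFD (0.0211) kept their calls.

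Leaving out libraries lowered the count of called genes to 427 to 564: it was 531, 550 and 517 without knockdown replicates 1, 2 and 3, and 436, 427 and 564 without control replicates 1, 2 and 3. Fewer libraries entered these fits. PDGFRB passed with upper-quartile scaling (log2 fold change 0.42), DESeq2 (0.41) and limma-voom (0.42), and ranged from 0.35 to 0.50 without single libraries. The 10 calls over the pathway lists became 4 with the block, 4 to 6 without single libraries, 7 at a minimum total of 20 counts, and 14 with DESeq2 and with limma-voom. Calls over all genes moved the same way. Of 13445 genes tested, 1277 were called with DESeq2 and 1219 with limma-voom, against 1104 in the reported fit and 416 with the block. At the minimum total of 20 counts 896 of 17170 genes were called. Nothing about the lists is read from these changes. The receptor partners had 6 calls with DESeq2 and with limma-voom, against 3. Signal relay, with 2, had 3 with DESeq2, limma-voom and upper-quartile scaling, 1 at a minimum total of 20 counts, 0 with the block and 0 to 1 without single libraries. The brakes, with 3, had 1 without a filter and at that minimum, 0 with the block and 0 to 1 without single libraries. The related kinases, with 2, had 1 with total counts, upper-quartile scaling, that minimum, the block and every single library left out. The receptor share differed by 4.43 to 6.29 points and the ligand share by 16.3 to 17.9 points without single libraries. No direction reversed, and the cause of the changed calls was not tested.

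At 3741087 to 6421605 gene counts per library, PDGFA and most endothelial and epithelial markers were too low for a test. With 3 libraries a group, the exact tests of the shares cannot go below 0.1.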
